A study of Mus musculus with 8 samples.

Results

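The 10 genes studied here mark the resident macrophages of the mouse peritoneal cavity: Gata6, Vsig4, Timd4, F5, F13a1, Icam2, Selp, Cd5l, Prg4 and Rarb. They were followed over all 8 libraries of a study of nicotine and the α7 nicotinic acetylcholine receptor. The 10 genes were taken by symbol, with earlier results of these data known, and all 10 were found among the 24339 genes of the expression table. Macrophages from the peritoneal cavity of C57BL/6 mice, either wild type or lacking the receptor (α7nAChR-/-, gene Chrna7), were plated, washed, kept overnight and treated the next day. A 15 min exposure to 10 µM nicotine or to vehicle came first. A 4 h exposure to vehicle or to 100 ng/ml of LPS, a bacterial outer membrane component sensed by a Toll-like receptor, followed. The 8 groups were therefore vehicle, nicotine, LPS, and nicotine with LPS in each genotype, with 1 library per group and no replicate. The age and sex of the mice, and how many cell preparations stand behind a genotype, were not given in the sources used here. Genotype and cell preparation cannot be told apart in this design.

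Resident peritoneal macrophages are long-lived phagocytes that settle in the cavity early in life and maintain themselves there. Their identity depends on the transcription factor GATA6, whose gene is induced in them by retinoic acid, a vitamin A product of the surrounding tissue that acts through retinoic acid receptors such as the one encoded by Rarb. The other genes encode proteins of their known roles. Vsig4 (complement receptor CRIg), Timd4 (a receptor for phosphatidylserine on dying cells) and Cd5l (a secreted scavenger protein) serve uptake. F5 (coagulation factor V) and F13a1 (the catalytic subunit of the fibrin-linking factor XIII) serve clotting, Selp (P-selectin) and Icam2 (a ligand of the integrin LFA-1) serve adhesion, and Prg4 encodes lubricin, a lubricating glycoprotein.

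Expression was given as FPKM, fragments scaled by transcript length and sequencing depth. Levels are set side by side between genes on this scale, but a low value can be a failed estimate (below). In wild type cells with vehicle the 10 genes ranged from Vsig4 at 165 FPKM and Prg4 at 142 FPKM down to Rarb at 0.745 FPKM, with F5 at 64.8, F13a1 at 37.2, Cd5l at 32.5, Icam2 at 25.8, Timd4 at 20.3, Gata6 at 15.7 and Selp at 11.7 FPKM. Rarb stayed under 1 FPKM in all 8 libraries and was described without a test. The other 9 genes averaged 1 FPKM or more and were tested among 10447 genes. With no replicates, each factor was tested by comparing the 4 libraries with it against the 4 without it in 1 additive model on log2(FPKM + 1), in which departures from additivity set the spread (limma, adjusted over all genes, threshold 0.05). Changes on this scale are understated for low genes. The 4 libraries on each side were thus not replicates of 1 condition, and a p-value reflects only how these 8 libraries scatter about the model.

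**Figure D1:**
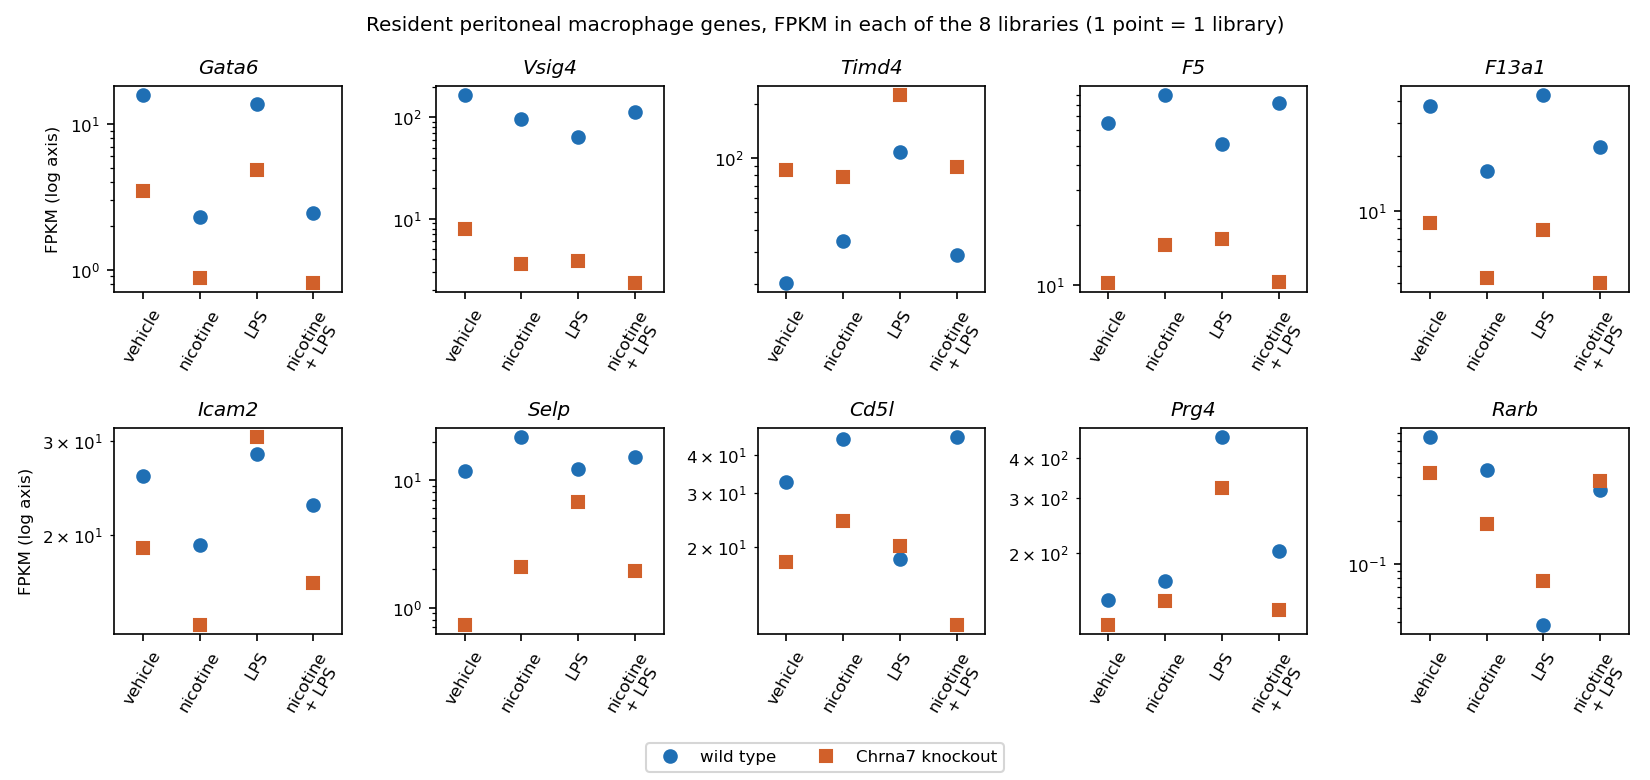
FPKM of the 10 genes in each of the 8 libraries, on log axes that differ in range from gene to gene; circles are wild type and squares Chrna7 knockout libraries, and each point is 1 library. The 4 knockout libraries lie below the 4 wild type ones for Vsig4, F5, F13a1 and Selp, and the 4 nicotine libraries lie below the other 4 for Gata6.

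General macrophage genes were abundant in every library. All 10 genes of that list were tested, with Adgre1, a macrophage surface antigen gene, at 289 to 421 FPKM and Itgam (CD11b) at 301 to 472 FPKM over the 8 libraries, and none passed for genotype in limma (2 had an unadjusted p under 0.05). Chrna7 was listed at 0 in all 8 libraries, wild type included, so its values do not check the genotype labels. A low value in the table can be a failed estimate, since the housekeeping gene Gapdh stood at only 1.34 to 8.90 FPKM. The FPKM of all genes summed to 413052 to 854016 per library and was highest in the 2 libraries given LPS alone. In such bulk samples fewer cells of a type and less RNA per cell cannot be told apart. The chromosomal positions (GENCODE M21, GRCm38) place Gata6 on chromosome 18, Vsig4 on X, Timd4 and Icam2 on 11, F13a1 on 13, Cd5l on 3, Rarb on 14, and Prg4, Selp and F5 on 1, and Chrna7 on 7.

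Genotype separated the libraries in several of these genes. In knockout macrophages Vsig4, F13a1, F5 and Gata6 were lower by the test, 4 of the 9 tested genes, against 0.412% of all tested genes called lower in the knockout and 1.1% called in either direction. An unadjusted p under 0.05 was reached by 7 of the 9, and by 12.4% of all tested genes. All 4 knockout values lay under all 4 wild type values for Vsig4, F13a1, F5 and Selp, against 0.976% of all tested genes with such a separation downwards. None of the 9 was called higher by the additive model (0.689% of all tested genes were) or lay wholly above wild type (1.57% did). Timd4 was, however, higher in the knockout library of every matched pair, and passed with the pairs as a block (below). Of the 10447 tested genes, 1884 were higher and 1825 lower in the knockout in all 4 pairs. The median log2 difference of the 9 genes was -1.24, against -0.01 over all tested genes.

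Of the 9 genes Vsig4 differed most. It stood at 165, 96.9, 64.6 and 114 FPKM in wild type with vehicle, nicotine, LPS, and nicotine with LPS, and at 7.93, 3.57, 3.85 and 2.33 FPKM in the knockout in the same order. The lowest wild type library was thus well above the highest knockout library. The fitted difference was 20.7-fold (log2 change -4.37 ± 0.29, SE, 4 libraries against 4, limma adjusted p = 0.00326), and the ratio of FPKM within matched pairs ran from 16.8-fold with LPS to 48.8-fold with nicotine and LPS. Its call held under all 18 other settings and left-out libraries, with log2 changes from -4.67 to -3.57.

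Vsig4 (chromosome X, 96247203 to 96293438, minus strand) lies between Msn and Hsf3. Msn, encoding the actin linker moesin, was at 216 to 685 FPKM in wild type and 245 to 782 FPKM in knockout libraries, and Hsf3 was at or near 0 in all. The genotypes overlapped in Msn. The window from 250 bases before to 50 bases after its start site is shown because this gene differed most between genotypes (RefSeq, GRCm38.p6, minus strand, chrX:96293389-96293688), and it holds none of the 4 GATA hexamers searched (below), so no letters are in capitals.
Vsig4: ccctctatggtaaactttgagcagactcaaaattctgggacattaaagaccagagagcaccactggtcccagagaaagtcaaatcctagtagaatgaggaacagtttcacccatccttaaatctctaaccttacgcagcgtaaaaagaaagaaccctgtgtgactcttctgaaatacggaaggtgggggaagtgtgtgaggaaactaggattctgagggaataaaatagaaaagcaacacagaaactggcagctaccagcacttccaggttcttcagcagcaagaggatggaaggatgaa

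F5 and Selp are next to each other on chromosome 1, both on the plus strand, with 1811 bases between the end of Selp (164115264 to 164150026) and the start of F5 (164151838 to 164220277). F5 was at 64.8, 89.2, 50.9 and 81.3 FPKM in wild type with vehicle, nicotine, LPS, and both, and at 10.3, 15.9, 17.0 and 10.3 FPKM in the knockout. The groups did not overlap, and F5 was 5.06-fold lower in the knockout (log2 change -2.34 ± 0.24, adjusted p = 0.0132). The call ended when the wild type vehicle, nicotine, or nicotine with LPS library, or the knockout vehicle or nicotine library, was left out (adjusted p = 0.0569, 0.0577, 0.07, 0.0729 and 0.0714), with the size nearly as before (log2 change -2.61 to -2.14 over the left-out libraries).

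Selp was at 11.7, 21.6, 12.2 and 15.3 FPKM in wild type cells and at 0.732, 2.08, 6.71 and 1.92 FPKM in knockout cells, in the same order of treatments. The groups again did not overlap, but the knockout library with LPS came closest to wild type, at 6.71 FPKM. The difference was 4.77-fold (log2 change -2.25 ± 0.44) and did not pass the test (adjusted p = 0.0878). Without the knockout LPS library it passed (-2.80, adjusted p = 0.0153), as it did with the 4 matched pairs as a block (adjusted p = 0.0174). Across the 8 libraries F5 and Selp had a Pearson correlation of 0.94 on log2(FPKM + 1), and F5 was the second most similar gene to Selp among 7163 genes that averaged 5 FPKM or more. This likeness is a description over 8 libraries that share the genotype and treatment layout.

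Slc19a2, the gene that follows F5, did not show the same split. This thiamine transporter gene was at 3.25, 8.95, 2.04 and 5.45 FPKM in wild type and 2.94, 5.65, 1.62 and 5.53 FPKM in the knockout. The genotypes overlapped. The start windows of Selp (chr1:164115014-164115313) and F5 (chr1:164151585-164151884) are shown, both from RefSeq on GRCm38.p6 and the plus strand, because these neighbours had like patterns. Neither window holds a GATA hexamer, so both are in lower case.
Selp: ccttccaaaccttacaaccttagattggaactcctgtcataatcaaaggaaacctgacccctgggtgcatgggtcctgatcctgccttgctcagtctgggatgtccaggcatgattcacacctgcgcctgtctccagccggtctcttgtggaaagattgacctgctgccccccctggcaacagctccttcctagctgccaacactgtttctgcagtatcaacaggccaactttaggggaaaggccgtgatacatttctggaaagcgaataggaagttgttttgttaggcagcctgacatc
F5: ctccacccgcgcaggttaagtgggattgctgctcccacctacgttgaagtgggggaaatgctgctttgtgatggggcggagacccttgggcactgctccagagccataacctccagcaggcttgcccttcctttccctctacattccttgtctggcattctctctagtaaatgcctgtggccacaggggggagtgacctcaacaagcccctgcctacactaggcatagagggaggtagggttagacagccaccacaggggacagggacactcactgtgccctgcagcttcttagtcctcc

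F13a1 (chromosome 13, 36867178 to 37050244, minus strand) was at 37.2, 16.5, 42.8 and 22.2 FPKM in wild type with vehicle, nicotine, LPS, and both, and at 8.59, 4.27, 7.82 and 4.02 FPKM in the knockout. The groups did not overlap, and within each genotype both nicotine libraries were the lowest. F13a1 was 4.17-fold lower in the knockout (log2 change -2.06 ± 0.14, adjusted p = 0.00361). Only the fit with genotype as its sole term, of the 18 alternatives, ended this call (adjusted p = 0.154). Its neighbour Ly86, encoding the Toll-like receptor partner MD-1, was at 194 to 249 FPKM in wild type and 121 to 317 FPKM in knockout libraries.

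Gata6, the transcription factor gene of this cell type, was at 15.7, 2.30, 13.8 and 2.45 FPKM in wild type with vehicle, nicotine, LPS, and both, and at 3.49, 0.874, 4.84 and 0.814 FPKM in the knockout. The knockout was lower in all 4 matched pairs, by 4.51-fold with vehicle, 2.63-fold with nicotine, 2.85-fold with LPS and a value between these with both, as ratios of FPKM. The genotypes overlapped, because the wild type libraries with nicotine were under the knockout libraries without it. The fitted difference was 2.37-fold (log2 change -1.24 ± 0.20, adjusted p = 0.0458) and was close to the threshold. Leaving out any 1 of the 8 libraries ended the call (adjusted p = 0.0855 to 0.174), as did a filter at 5 FPKM (adjusted p = 0.0747), no filter (0.119), a pseudocount of 5 (0.167), quantile scaling (0.0693), rescaling to the same sum (0.0897) and genotype as the only term (adjusted p = 1.00).

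Timd4 (chromosome 11, 46810800 to 46844332) went the other way. It was at 20.3, 34.5, 108 and 29.1 FPKM in wild type with vehicle, nicotine, LPS, and both, and at 85.7, 78.3, 222 and 89.0 FPKM in the knockout. The knockout value was above its wild type counterpart in 4 of 4 pairs, from 2.05-fold with LPS to 4.23-fold with vehicle, but the wild type LPS library overlapped the knockout range. The difference was 2.73-fold (log2 change 1.45 ± 0.41) and did not pass in the additive model (adjusted p = 0.211). It passed only with the matched pairs as a block (adjusted p = 0.00796). The additive model has no LPS by nicotine term, so the interaction called for Timd4 (below) adds to its spread. Havcr1, the TIM family gene beside it, was at 0.557 to 2.10 FPKM in wild type and 1.16 to 5.15 FPKM in knockout libraries.

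Cd5l, Prg4 and Icam2 did not pass the test for genotype. Cd5l was at 32.5, 45.0, 18.2 and 45.6 FPKM in wild type and 17.8, 24.3, 20.1 and 11.1 FPKM in the knockout (log2 change -0.88 ± 0.31, adjusted p = 0.302), lower in 3 of 4 pairs. Its neighbour Fcrls was at 5.18 to 9.88 FPKM in wild type and 1.75 to 3.34 FPKM in knockout libraries, without overlap. Fcrls was called lower in the knockout (log2 change -1.20 ± 0.14, limma adjusted p = 0.0188). Fcrl1, on the other side of Cd5l, overlapped between genotypes and did not pass (adjusted p = 0.554). Prg4 was lower in the knockout in all 4 pairs by 1.16-fold to 1.54-fold (-0.41 ± 0.31, adjusted p = 0.675), and Icam2 in 3 of 4 pairs (-0.32 ± 0.15, adjusted p = 0.47). The spread of the pairs is shown in the plot of knockout against wild type.

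**Figure D2:**
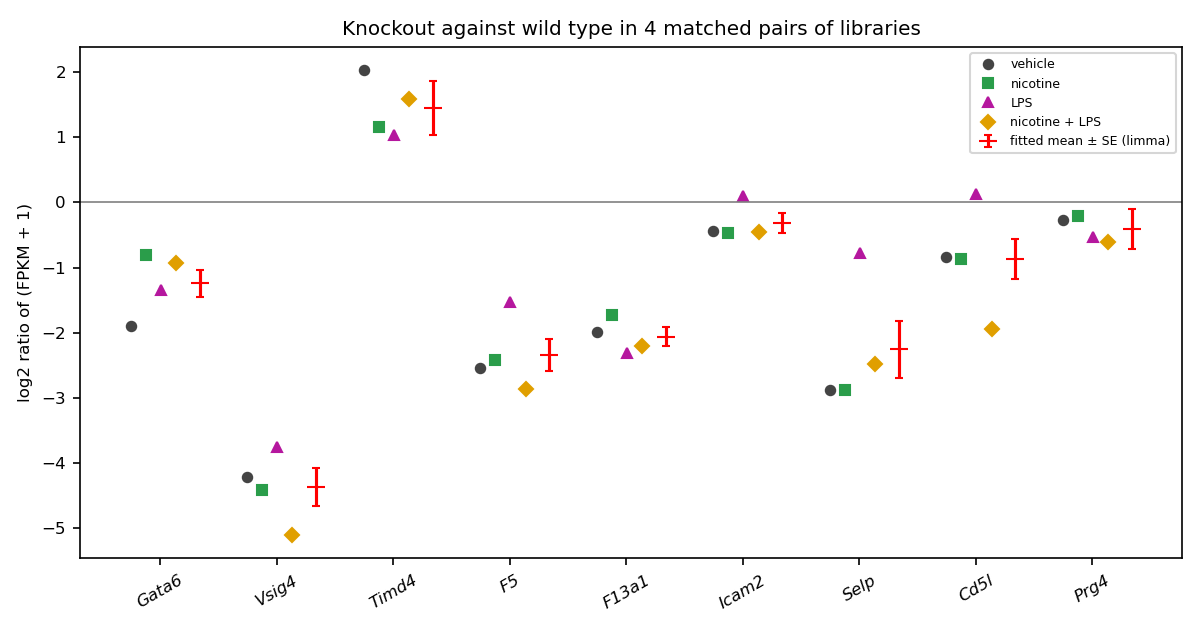
Log2 ratio of FPKM + 1, knockout over wild type, for the 9 tested genes; symbols are the 4 matched pairs of libraries by treatment, and the red mark is the fitted mean ± SE. Vsig4 lies lowest (fitted -4.37), all 4 pairs are negative for Gata6, Vsig4, F5, F13a1, Selp and Prg4, and all 4 are positive for Timd4. Of the 10447 tested genes, 1825 are negative and 1884 positive in all 4 pairs.

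The other resident macrophage genes divided between both directions by genotype. Of 25 in this list 23 were tested, and 2 rose and 3 fell in the knockout, with a median log2 difference of -0.22. Over all tested genes 0.689% rose and 0.412% fell, with a median of -0.01. Ptgis, the prostacyclin synthase gene, fell most (log2 change -3.00 ± 0.37, adjusted p = 0.0203), from 18.1 to 99.5 FPKM in wild type to 4.02 to 7.99 FPKM in the knockout. Wnt2, a secreted signalling factor, fell by 1.45 on the log2 scale (adjusted p = 0.0314), and the B cell attractant Cxcl13 rose (1.74, adjusted p = 0.0292). Smpdl3a, a phosphodiesterase gene, fell by 1.09 (adjusted p = 0.0396), and the clotting factor VII gene F7 rose (1.09, adjusted p = 0.0302). The list therefore held members on each side, as the plot of this list shows.

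**Figure D3:**
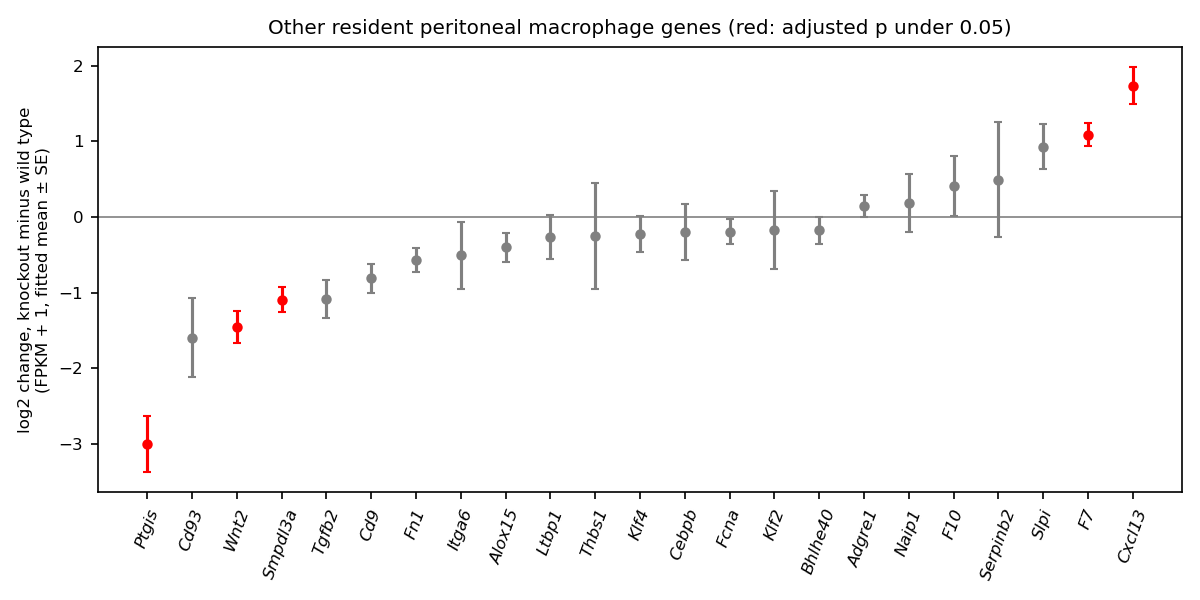
Fitted log2 difference, knockout minus wild type, ± SE, of the 23 tested genes in the list of other resident peritoneal macrophage genes, ordered by value, with red points past an adjusted p of 0.05. Ptgis (-3.00), Wnt2 (-1.45) and Smpdl3a (-1.09) are the red points below 0, and F7 (1.09) and Cxcl13 (1.74) those above.

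The counts of related pathways that follow stand beside 0.689% of all tested genes called higher and 0.412% called lower for genotype. In the coagulation list, 11 of 20 genes were tested, and F7 rose and Pros1, encoding the anticoagulant protein S, fell (log2 change -1.23 ± 0.18, adjusted p = 0.0329) in the knockout. In the uptake list 2 of 13 tested genes fell, Mfge8, a bridge between phosphatidylserine and integrins (-1.05, adjusted p = 0.0357), and the scavenger receptor gene Cd36 (-0.97, adjusted p = 0.0245). Among the liver X receptor (LXR) genes, which regulate lipid handling and to which Cd5l belongs as a known target, Apoe (-1.94, adjusted p = 0.00311) and Cd36 fell, 2 of 13. None of 11 tested selectin and integrin partners and none of 9 tested retinoic acid genes passed for genotype in limma (3 and 1 had an unadjusted p under 0.05). The most abundant of these were Itgb2 (465 to 617 FPKM), Itgam, Tgm2 (84.4 to 960 FPKM) and Dhrs3 (1.69 to 158 FPKM).

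Markers of other cells moved with genotype in part. Of 14 tested genes of small and monocyte-derived peritoneal macrophages, Ly6c2, a monocyte surface antigen gene, rose in the knockout (log2 change 3.86 ± 0.33, adjusted p = 0.00686) and the lectin gene Cd209a fell (-3.85 ± 0.26, adjusted p = 0.00326). Ly6c2 was at 1.97 to 13.4 FPKM in wild type and 33.9 to 184 FPKM in the knockout, and Cd209a at 7.86 to 19.8 FPKM against 0 to 0.156 FPKM. The list summed to 2477 to 4632 FPKM in wild type and 2830 to 4827 FPKM in the knockout, so the sums overlapped. The largest part of the sums was Cd74, at 1031 to 2405 FPKM in wild type and 1146 to 2324 FPKM in the knockout. The part of these cells in the genotype differences was not tested.

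Platelets and endothelium also express Selp, F5, F13a1 or Icam2. Of the platelet list 3 of 10 genes were tested and 2 rose in the knockout, the chemokine genes Pf4 (1.98, adjusted p = 0.0406) and Ppbp (1.97, adjusted p = 0.00371), which macrophages can also express. The platelet integrin gene Itga2b stayed under 1 FPKM in all 8 libraries, as did the glycoprotein genes Gp9, Gp1ba, Gp1bb and Gp5. The platelet list summed to 208 to 617 FPKM in wild type and 966 to 1431 FPKM in the knockout, nearly all of it Pf4, at 202 to 615 and 951 to 1420 FPKM. Its part in the genotype differences was not tested. Of 8 endothelial genes 6 stayed under 1 FPKM, Cldn5 and Emcn at 0, and the list summed to 5.48 to 6.84 FPKM in wild type and 5.94 to 8.26 FPKM in the knockout. All 8 mesothelial genes found in the table stayed under 1 FPKM.

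For the remaining cell types the ranges of the sums overlapped between genotypes, but within matched pairs neutrophil and dendritic cell sums were higher in the knockout in 4 of 4 and mast cell sums lower in 4 of 4. Their part in the genotype differences was not tested. Most of the neutrophil sum was S100a8, at 22.8 to 107 FPKM in wild type and 57.8 to 162 FPKM in the knockout. Of the 8 neutrophil genes 6 stayed under 1 FPKM in all 8 libraries. Ccr7 was the largest part of the dendritic cell sum in every library. These higher sums thus rest mainly on single genes, and whether there were more cells of either type was not tested. Camp, the other tested neutrophil gene, was also higher in the knockout in every pair. It was at 0 to 5.51 FPKM in wild type and 1.72 to 11.6 FPKM in the knockout. Among the other tested dendritic cell genes Batf3 was higher in every pair, and Xcr1 and Zbtb46 were not. B cell genes summed to 224 to 340 FPKM in wild type and 191 to 403 FPKM in the knockout, and of 8 tested only Fcer2a passed, lower in the knockout (log2 change -1.26, adjusted p = 0.0465). Mast cell genes summed to 218 to 809 against 165 to 631 FPKM, T and NK cell genes to 3.46 to 10.2 against 4.26 to 8.96 FPKM, neutrophil genes to 22.9 to 113 against 60.7 to 175 FPKM and dendritic cell genes to 10.8 to 75.1 against 19.7 to 124 FPKM. None of the genes of these 4 lists passed for genotype in limma, with 4, 0, 2 and 1 at an unadjusted p under 0.05, the most abundant being Tpsb2, Cma1, Cd3d, Cd4, S100a8, Camp, Ccr7 and Xcr1.

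Nicotine lowered Gata6 in both genotypes. Gata6 went from 15.7 to 2.30 FPKM in wild type without LPS and from 13.8 to 2.45 FPKM with it, and from 3.49 to 0.874 and from 4.84 to 0.814 FPKM in the knockout, so that all 4 nicotine libraries lay under the other 4. The ratio of FPKM was 6.86-fold, 5.63-fold, 4.00-fold and 5.94-fold in that order. On the log2(FPKM + 1) scale the fitted change was -1.85 ± 0.20 (3.60-fold lower, adjusted p = 0.000903), and it was called under all 18 alternatives, from -2.37 to -1.03. Of the 9 tested genes 3 were called lower with nicotine and none higher, against 22.2% of all tested genes lower, 24.1% higher and 46.3% in either direction. The same 3 had an unadjusted p under 0.05, as did 54.6% of all, and Gata6 alone had no overlap downwards, as had 14.4% of all tested genes.

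F13a1 and Icam2 were the other genes called lower. F13a1 fell 1.91-fold (log2 change -0.93 ± 0.14, adjusted p = 0.00298), with ratios of FPKM between 1.92-fold and 2.26-fold lower in the 4 pairs. Icam2 (chromosome 11, 106377656 to 106388075, minus strand) was at 25.8, 19.1, 28.4 and 22.8 FPKM in wild type with vehicle, nicotine, LPS, and both, and at 18.8, 13.5, 30.5 and 16.2 FPKM in the knockout. Nicotine libraries were lower in 4 of 4 pairs of each gene, by 1.25-fold to 1.88-fold for Icam2 (fitted 1.42-fold, -0.51 ± 0.15, adjusted p = 0.0314). Being lower in all 4 pairs was common, with 2920 of the 10447 tested genes. The call of Icam2 ended without any library but the wild type LPS one (adjusted p = 0.0543 to 0.0967), with rescaling to the same sum (0.0581), with matched pairs as a block (0.0505) and with nicotine as the only term (adjusted p = 0.123), which also ended that of F13a1 (adjusted p = 0.381).

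**Figure D4:**
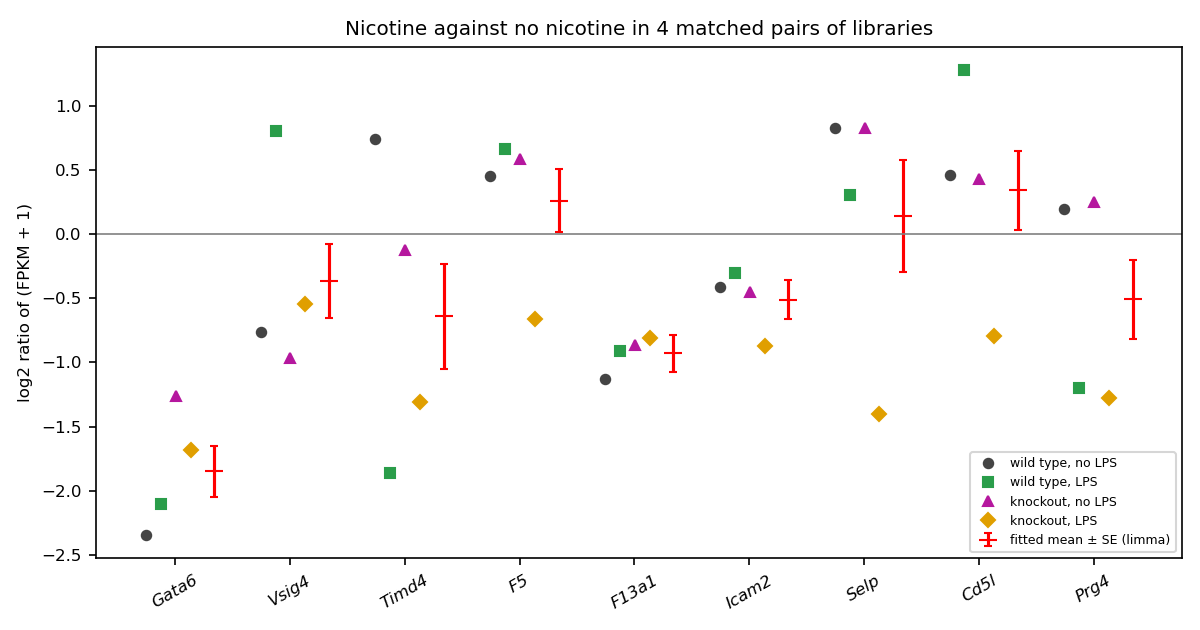
Log2 ratio of FPKM + 1, nicotine over no nicotine, for the 9 tested genes; symbols are the 4 matched pairs of libraries by genotype and LPS, and the red mark is the fitted mean ± SE. All 4 pairs are negative for Gata6 (fitted -1.85), F13a1 (-0.93) and Icam2 (-0.51), and the pairs of the other genes lie on both sides of 0. Of the 10447 tested genes, 2920 are negative in all 4 pairs.

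The change with nicotine in these 3 genes was not shown to differ between genotypes. The difference of the nicotine effect, knockout minus wild type, was 0.75 ± 0.27 for Gata6, 0.18 ± 0.26 for F13a1 and -0.30 ± 0.25 for Icam2 on the log2 scale (adjusted p = 0.945, 0.955 and 0.945, limma with 2 residual degrees of freedom). This test called 0 of 10447 genes, with 451 at an unadjusted p under 0.05, or 4.32% of all, and Gata6 was among them at an unadjusted p of 0.0346. On log2(FPKM + 1) changes at the low knockout values of Gata6 are compressed.

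The other 6 tested genes did not pass for nicotine. Prg4 (log2 change -0.51 ± 0.31, adjusted p = 0.214) and Timd4 (-0.64 ± 0.41, adjusted p = 0.237) were among them, and Prg4 passed with quantile scaling (-0.61, adjusted p = 0.0327). F5, Selp and Cd5l behaved alike. Each was higher with nicotine in 3 of 4 pairs and lower in the knockout with LPS, where F5 went from 17.0 to 10.3 FPKM, Selp from 6.71 to 1.92 FPKM and Cd5l from 20.1 to 11.1 FPKM. Their fitted changes were 0.26 ± 0.24, 0.14 ± 0.44 and 0.34 ± 0.31 (adjusted p = 0.41, 0.811 and 0.391). Without the knockout LPS library F5 and Selp passed upwards (0.53 and 0.68, adjusted p = 0.0463 and 0.0295), while without the wild type nicotine, wild type LPS or knockout vehicle library Selp turned to -0.19, -0.06 and -0.19. Vsig4 was lower in 3 of 4 pairs and higher in wild type with LPS, at 114 against 64.6 FPKM (fitted -0.37 ± 0.29, adjusted p = 0.332).

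Other resident macrophage genes gave 2 risers and 5 fallers with nicotine among 23, with a median of -0.16 against -0.04 over all tested genes. Of all tested genes 24.1% were called higher and 22.2% lower with nicotine. The transcription factor genes Klf4 (log2 change 2.34 ± 0.24, adjusted p = 0.000798) and Bhlhe40 (1.76 ± 0.18, adjusted p = 0.000761) rose, and Ltbp1, which binds latent TGF-β, fell by 0.96 (adjusted p = 0.0328). Of the 9 tested retinoic acid genes 3 rose, led by Tgm2, the tissue transglutaminase gene (1.66, adjusted p = 0.0047), and the partner receptor gene Rxra (0.72, adjusted p = 0.00596), and Rarg, the third retinoic acid receptor gene, fell by 1.15 (adjusted p = 0.035). Among clotting genes the urokinase gene Plau rose (3.08, adjusted p = 0.000539), and the tissue factor gene F3 (-1.71, adjusted p = 0.0406) and F7 (-0.90, adjusted p = 0.00425) fell. The fall of F3 was larger with LPS, from 356 to 31.4 FPKM in wild type and 184 to 34.4 FPKM in the knockout. Without LPS it went from 5.09 to 3.03 and from 8.90 to 6.45 FPKM. The LPS by nicotine test called 6 of the 11 tested clotting genes, all lower, against 17.3% of all tested genes called lower.

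Of 11 tested adhesion partners 6 fell with nicotine and 1 rose, with a median of -0.78. For this and the lists that follow, the shares over all tested genes are 22.2% lower and 24.1% higher, with a median of -0.04. The LFA-1 subunit gene Itgal (log2 change -1.34, adjusted p = 0.00879) and Itga4 (-1.20, adjusted p = 0.00417) were among those that fell. Uptake genes gave 3 risers and 3 fallers of 13. Their largest changes were in Scarf1 (-2.05, adjusted p = 0.00583), Mertk (-1.83, adjusted p = 0.0154) and Axl (-1.58, adjusted p = 0.0203). Axl fell more with LPS, from 126 to 18.6 FPKM in wild type and 137 to 23.5 FPKM in the knockout. Without LPS it went from 30.4 to 17.5 and from 23.4 to 17.7 FPKM. LXR genes gave 2 risers and 2 fallers of 13, with Lpcat3 (-1.47, adjusted p = 0.000441), Cd36 (0.80, adjusted p = 0.00319) and Nr1h3, encoding LXRα (-0.71, adjusted p = 0.0389). Mast cell markers rose with nicotine in 4 of 8, led by Cpa3 (1.27, adjusted p = 0.00203), Mcpt4 (1.27, adjusted p = 0.00083) and Tpsb2 (1.18, adjusted p = 0.00187), and summed to 321 to 809 FPKM with nicotine and 165 to 470 FPKM without. General macrophage genes summed to 22129 to 32232 FPKM with nicotine and 28409 to 40344 FPKM without, with 1 riser and 1 faller of 10, Cd68 (0.60, adjusted p = 0.0201) and Spi1 (-0.77, adjusted p = 0.0399). Most of this sum was Lyz2, at 17576 to 25861 FPKM with nicotine and 23020 to 32448 FPKM without. The part of these lists in the change of Gata6 was not tested.

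LPS averaged over nicotine changed none of the 9 genes by the test, against 27.0% of all tested genes called (15.8% higher, 11.3% lower), and Prg4 alone had an unadjusted p under 0.05, against 44.9% of all. None had all 4 LPS libraries above or below the rest, as 9.83% and 7.55% of all tested genes had. The LPS response of Timd4 and Prg4 differed between cells with and without nicotine. Without nicotine, Timd4 was at 20.3 FPKM with vehicle and 108 FPKM with LPS in wild type, and at 85.7 and 222 FPKM in the knockout. After nicotine the same pairs stood at 34.5 and 29.1 FPKM and at 78.3 and 89.0 FPKM. The response to LPS differed by -1.89 ± 0.35 on the log2 scale between nicotine and vehicle (adjusted p = 0.0119). That call ended without the wild type nicotine library (-1.70, adjusted p = 0.0551) or the wild type nicotine with LPS library (-1.81, adjusted p = 0.0595) and with quantile scaling (-1.24, adjusted p = 0.0828).

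Prg4 (chromosome 1, 150449412 to 150466165, minus strand) had the same shape. Without nicotine it was at 142 FPKM with vehicle and 467 FPKM with LPS in wild type, and at 118 and 321 FPKM in the knockout. After nicotine the pairs stood at 163 and 203 FPKM and at 140 and 132 FPKM. The 2 libraries with LPS alone were the highest for Prg4, and the other 6 lay between 118 and 203 FPKM. The response differed by -1.46 ± 0.21 (adjusted p = 0.00695), and this call ended with quantile scaling (-0.68, adjusted p = 0.0614). Of the 9 genes these 2 were called, both lower, against 17.3% of all tested genes called lower and 30.1% in either direction. The same 2 had an unadjusted p under 0.05, as did 44.5% of all.

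**Figure D5:**
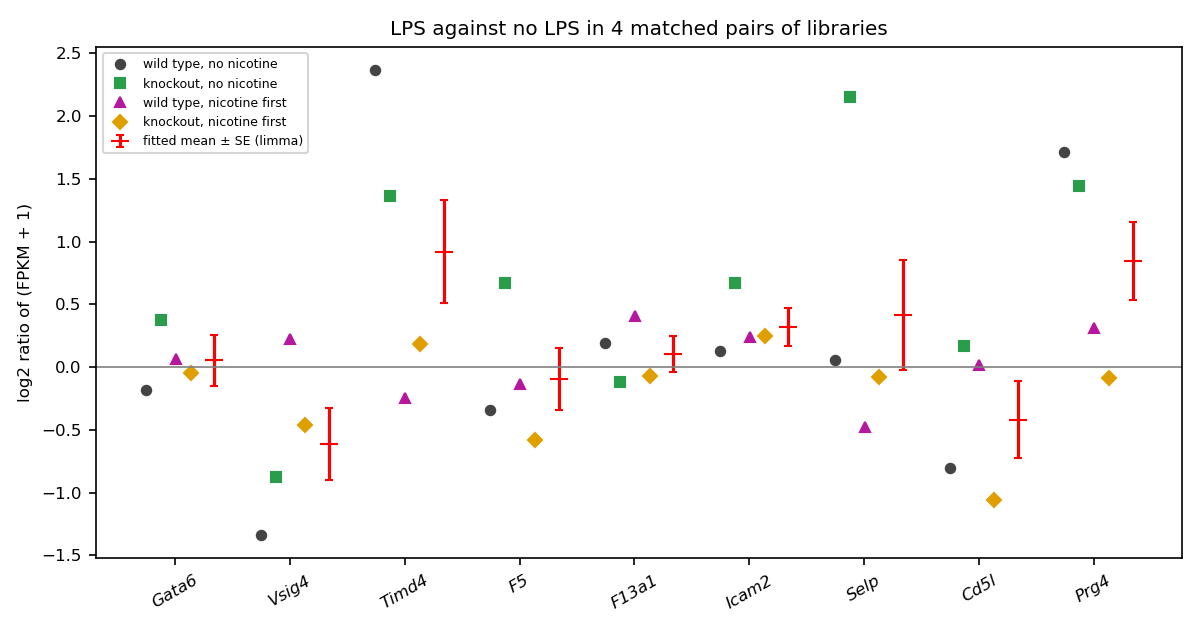
Log2 ratio of FPKM + 1, LPS over no LPS, for the 9 tested genes; symbols are the 4 matched pairs of libraries by genotype and nicotine, and the red mark is the fitted mean ± SE. For Timd4 and Prg4 the pairs without nicotine lie between 1.36 and 2.36 and those after nicotine between -0.24 and 0.31.

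In the remaining genes the effect of LPS was small or uneven. The LPS level of Gata6 was 0.875 to 1.38 times the level without it in matched libraries (log2 change 0.05 ± 0.20, adjusted p = 0.85), and that of F13a1 0.909 to 1.35 times (0.10 ± 0.14, adjusted p = 0.596). Vsig4 was 2.55-fold and 2.06-fold lower with LPS without nicotine, in wild type and knockout, and 1.17-fold higher and 1.54-fold lower after nicotine (fitted -0.61 ± 0.29, adjusted p = 0.145). Selp had the most uneven pairs, from 0.732 to 6.71 FPKM in the knockout without nicotine, against 11.7 to 12.2 FPKM in wild type (difference of the response, knockout minus wild type, over both nicotine states 1.25 ± 0.54, adjusted p = 0.623). The genotype by LPS test called none of the 9 and 0 of 10447 genes, with 0 of the 9 and 8.04% of all at an unadjusted p under 0.05.

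When each library was rescaled to the same FPKM sum, 3 of the 9 genes were called lower with LPS, Vsig4 (log2 change -1.17, adjusted p = 0.0346), F5 (-0.69, adjusted p = 0.0336) and Cd5l (-1.01, adjusted p = 0.0281). That scaling moved the median of all genes from 0.02 to -0.51 and the calls from 1648 higher and 1176 lower to 853 higher and 4382 lower. Without the wild type nicotine with LPS library Vsig4 was called lower as deposited (-0.92, adjusted p = 0.0325).

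Other resident macrophage genes gave 4 risers and 2 fallers with LPS among 23, the largest being Serpinb2, a plasminogen activator inhibitor gene (log2 change 4.18, adjusted p = 0.0129), Naip1, a sensor of bacterial secretion proteins (-2.12, adjusted p = 0.0131), and the clotting factor X gene F10 (1.76, adjusted p = 0.0232). For this and the lists that follow, 15.8% of all tested genes were called higher with LPS and 11.3% lower. Of the retinoic acid genes 2 rose and 3 fell of 9, with Dhrs3 (-3.62, adjusted p = 0.00326) and Rxra (-1.89, adjusted p = 0.000649) lower and Tgm2 (1.63, adjusted p = 0.0127) higher. Averaged over nicotine, clotting genes gave 4 risers and 2 fallers of 11, with F3 (3.84, adjusted p = 0.00619), Procr, the protein C receptor gene (2.77, adjusted p = 0.0312), and Plaur, the urokinase receptor gene (1.89, adjusted p = 0.027) changing most. Adhesion partners rose in 6 of 11, led by Vcam1 (3.64, adjusted p = 0.00246) and Icam1 (2.25, adjusted p = 0.00567), while Icam2 did not pass (0.32 ± 0.15, adjusted p = 0.144).

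The counts here stand beside 15.8% of all tested genes called higher and 11.3% lower with LPS, and 24.1% and 22.2% with nicotine. Uptake genes gave 1 riser and 3 fallers with LPS of 13, with Gas6 (log2 change -1.61, adjusted p = 0.00412) and Stab1 (-1.40, adjusted p = 0.0143) lower, and LXR genes 1 and 1 of 13, Scd1 (0.87, adjusted p = 0.0108) and Cd36 (-0.51, adjusted p = 0.0296). General macrophage genes fell in 4 of 10, among them Fcgr3 (adjusted p = 0.0225) and Csf1r (-0.82, adjusted p = 0.0273). Mast cell genes rose in 7 of 8, led by Hdc (3.59, adjusted p = 0.0283). Genes of small and monocyte-derived macrophages gave 7 risers and 1 faller of 14 with LPS, led by Irf4 (1.58, adjusted p = 0.0116), and 3 and 2 with nicotine, led by Ccr2 (-1.83, adjusted p = 0.0251). Dendritic cell genes gave 3 risers of 4 with LPS and 2 risers and 1 faller with nicotine, led by Xcr1 in both (1.94 and 2.47, adjusted p = 0.0171 and 0.00316). Their part in the values of the 10 genes was not tested.

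Rarb was low throughout, at 0.745, 0.445, 0.0384 and 0.322 FPKM in wild type with vehicle, nicotine, LPS, and both, and at 0.427, 0.188, 0.0773 and 0.372 FPKM in the knockout. Both libraries with LPS alone were the lowest. The other genes of its receptor family were more abundant, Rxra at 6.40 to 48.8, Rara at 5.34 to 12.4 and Rarg at 2.27 to 14.2 FPKM, except Rxrg, which stayed under 1 FPKM. Aldh1a2, encoding the enzyme that makes retinoic acid, rose with LPS (log2 change 1.61, adjusted p = 0.000937) from 5.89 to 7.64 FPKM without it to 18.5 to 29.7 FPKM with it; it was singled out after its values were seen.

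The Rarb start window is shown because it carries the classical retinoic acid response element of that gene. The window (RefSeq, GRCm38.p6, minus strand, chr14:16575427-16575726) holds a match to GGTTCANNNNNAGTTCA, in capitals, that starts 53 bases before the start site of that window. GENCODE places Rarb at 16430839 to 16819156 on the minus strand. The window thus lies at a start site inside the annotated gene, not at its outer end. Such a match was present in 2 of 32851 windows of the same length, or 0.00609%, and the related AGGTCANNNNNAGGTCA in 0.00913%, with both strands searched.
Rarb: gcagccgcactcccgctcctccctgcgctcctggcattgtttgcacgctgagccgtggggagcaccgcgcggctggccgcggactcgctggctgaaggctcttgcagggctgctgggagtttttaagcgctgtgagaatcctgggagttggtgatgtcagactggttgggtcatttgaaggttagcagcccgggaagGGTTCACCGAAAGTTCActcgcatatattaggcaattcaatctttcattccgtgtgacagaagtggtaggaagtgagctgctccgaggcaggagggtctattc

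Windows were matched by symbol for 7 of the 10 genes, not for Gata6, Icam2 and Prg4, and F13a1 had 2. The GATA hexamers AGATAA or AGATAG, and TGATAA or TGATAG, searched on both strands, occur in 29.8% of all 32851 windows, and among the 8 windows of these genes in those of Cd5l and Timd4. The window of Cd5l (RefSeq, GRCm38.p6, plus strand, chr3:87357631-87357930) has 3 matches, in capitals, 2 on the strand printed and 1 on the other, and is shown because it holds the most. A match is a string of letters, not a shown binding site. Timd4 has 1 match, starting at base 6 after the start site.
Cd5l: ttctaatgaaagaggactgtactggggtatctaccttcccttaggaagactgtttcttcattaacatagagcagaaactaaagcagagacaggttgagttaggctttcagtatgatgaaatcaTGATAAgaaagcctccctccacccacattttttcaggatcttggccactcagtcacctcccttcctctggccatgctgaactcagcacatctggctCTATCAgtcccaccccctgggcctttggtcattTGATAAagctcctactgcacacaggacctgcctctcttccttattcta

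For each tested gene the genes of most similar pattern (up to 3) were taken from 7163 genes, by Pearson correlation of log2(FPKM + 1) over the 8 libraries. Vsig4 was close to Ear2 (0.99) and Cd209a (0.98), F5 closest to Mfge8 (0.99), Cd209a (0.97) and Gnptg (0.96), and F13a1 to Apoe (0.94), Ear2 (0.94) and the phospholipid transfer gene Pltp (0.94). These are genes that were lower in all 4 knockout libraries: Ear2 was at 13.9 to 24.8 FPKM in wild type and 1.27 to 2.39 FPKM in the knockout, and Apoe at 10266 to 14412 against 2603 to 3708 FPKM.

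Gata6 was closest to the kinase gene Camkk2 (0.95), the growth factor gene Igf1 (0.94) and the calcium pump gene Atp2c1 (0.93). Camkk2 and Igf1 were lower with nicotine in all 4 pairs. Camkk2 was at 26.5, 4.19, 20.3 and 3.68 FPKM in wild type with vehicle, nicotine, LPS, and both, and at 12.4, 3.20, 10.95 and 2.73 FPKM in the knockout, and Igf1 at 90.9, 30.3, 85.0 and 35.3 against 36.3, 10.5, 33.5 and 7.59 FPKM. Timd4 was closest to Cox5b (0.99), Pilrb1 (0.98) and the ectoenzyme gene Bst1 (0.97), and Prg4 to Pde1b (0.98), Tm9sf4 (0.98) and Ctnna1 (0.98). Selp was closest to Gnptg (0.95), F5 and Ecm1 (0.94), Cd5l to Tcn2 (0.93), C3ar1 (0.93) and Ctsa (0.90), and Icam2 to Mpp6 (0.97), Ly86 (0.97) and Zeb2os (0.95).

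Among the 10 genes themselves the correlations over the 8 libraries ran from 0.95 for Vsig4 with F5, and 0.91 for Vsig4 with F13a1, to -0.76 for Vsig4 with Timd4 and -0.79 for Timd4 with the barely detected Rarb. Gata6 correlated most with F13a1 (0.83) and Icam2 (0.81), the genes that fell with it under nicotine, and at 0.11 with Cd5l. The 10 genes therefore did not move as 1 block over these libraries. The widest range over the libraries was that of Vsig4, 70.8 times between the highest and the lowest, against 2.26 times for Icam2.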

How the data were processed

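The 8 libraries hold RNA of plated peritoneal macrophages and were grouped by their titles, 1 library to a group. Poly(A) libraries were made with a TruSeq kit that does not mark strand, per the labels' protocols. The authors deposited 1 table of FPKM values per gene and library. CASAVA 1.8, HISAT2, Cufflinks, Cuffdiff and mm10 are named without role or order, per the submitters' processing notes, while the sources used here do not give the annotation, filters or library scaling. The table had 24341 lines, and for 2 repeated symbols the line with the higher mean was kept. Of 24339 genes, 7761 were at 0 throughout.

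FPKM are not counts, so log2(FPKM + 1) of the 10447 genes averaging 1 FPKM or more was fitted with limma 3.58.1 in R 4.3.3, with a trend and Benjamini-Hochberg adjustment over all genes. LPS, nicotine and genotype were terms of 1 additive model (4 residual degrees of freedom). The LPS by nicotine interaction was added for that test (3 residual degrees of freedom), and a genotype interaction besides for the others (2). The fits were also run on simulated data. The outcome is not reported here, and no result above rests on it. Fragment counts were not given. Steps between low values gave relative depths of 0.803 to 1.32 of the wild type vehicle library, but the ratio held for just 13.3% to 16.1% of low genes, so no counts were recovered and the depth is known only roughly.

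The genes, lists and tests were chosen with earlier results of these data known. The text names the 10 genes, the 3 largest called changes of each list per factor (the 2 most abundant where none passed), the 3 most similar genes averaging 5 FPKM or more and chromosomal neighbours. Some genes these rules select are not reported here. Promoter windows came from RefSeq (GRCm38.p6) and positions from GENCODE M21. Alternatives were pseudocounts of 0.1 and 5, other filters, quantile scaling, median centring, equal sums, limma without trend, other models and each library left out. Tables and plots were made with Python 3.11.15, pandas 2.3.3, NumPy 2.4.6 and Matplotlib 3.10.9.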

Additional observations from a re-analysis of the deposited data

Results flagged for a closer look

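The LPS response of Timd4 and of Prg4 differed between nicotine and vehicle by the interaction test (log2 differences of -1.89 and -1.46, limma adjusted p = 0.0119 and 0.00695, lower after nicotine in both genotypes). That test called 30.1% of all tested genes. The same difference of -1.46 for Prg4 can be read by nicotine. Prg4 was higher with nicotine in both pairs without LPS (0.20 and 0.25 on the log2 scale) and lower in both pairs with LPS (-1.28 and -1.20). F13a1 was higher with LPS in both wild type pairs (0.20 and 0.41) and lower in both knockout pairs (-0.07 and -0.12), a difference of -0.40 that did not pass the interaction test (limma adjusted p = 0.645). Selp was higher with LPS in both pairs without nicotine (0.05 and 2.15) and lower in both pairs after it (-0.08 and -0.47), a difference of -1.38 that did not pass (adjusted p = 0.176).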

How the results depend on the processing

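Over all settings, 629 values of single genes kept their direction and their side of the threshold, 35 values lost and 15 gained a call, and 31 turned, all of these uncalled. The cause of these moves was not tested. The number of genes called for LPS was 2824, and 5235 with equal sums, 520 with LPS as the only term, 1442 with matched pairs as a block and 803 to 2335 with a library left out. For nicotine it was 4842, 2805 with nicotine alone and 3675 to 4419. For genotype it was 115, 55 without a filter, 19 with genotype alone, 798 with matched pairs and 13 to 171 (13 without the knockout nicotine library). For LPS by nicotine it was 3143, and 1035 to 3706. The genotype by nicotine and genotype by LPS tests called 0 genes, 0 to 2 and 0 to 5 with a library left out, and the latter 1 with equal sums. Quantile scaling turned the LPS calls to 1284 higher and 1604 lower and those of LPS by nicotine, 1332 and 1811 as deposited, to 1567 and 1261, while equal sums gave 3347 and 585 there, with the median of all genes moved from -0.11 to 0.46.

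Of the 9 tested genes, 0 were called for LPS (3 with equal sums, 0 to 1 with a library left out), 3 for nicotine (1 with nicotine alone, 4 with quantile scaling, 2 to 4), 4 for genotype (2 with genotype alone, 6 with matched pairs, 1 of them higher, and 2 to 4) and 2 for LPS by nicotine (0 with quantile scaling, 1 to 4); the genotype interactions called 0 of them in every setting. With equal sums the LPS effect turned for Gata6 (-0.45), F13a1 (-0.47), Icam2 (-0.27) and Selp (-0.0808), and the LPS by nicotine difference for Gata6 (0.56), F5 (0.11), Icam2 (0.49) and Cd5l (0.42). With quantile scaling the LPS effect of F13a1 (-0.0799) and the interaction of Icam2 (0.29) and Cd5l (0.17) turned.

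With a library left out, the LPS effect ranged from -0.12 to 0.21 for Gata6, -0.36 to 0.10 for F5 and -0.13 to 0.74 for Selp, and the nicotine effect of Selp from -0.19 to 0.68. The LPS by nicotine difference ranged from -0.53 to 0.35 for Gata6, -1.06 to 0.0175 for F5, -0.0869 to 0.35 for F13a1, -0.43 to 0.12 for Icam2 and -0.91 to 0.51 for Cd5l, and the genotype by nicotine difference of F13a1 from -0.0573 to 0.42. No paired analysis by replicate number was possible because the labels give no replicates; the block above is the matched treatment. The rough depth limits statements on Rarb and other genes under 1 FPKM.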
